A study of Macaca fascicularis
Homo sapiens with 2 samples.

Results

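This account describes human and cynomolgus macaque cells side by side after 7 days of neural induction, in a single library that held both species. Barcodes of the day 7 library with at least 1000 unique molecular identifiers (UMIs), 500 genes and no more than 20% mitochondrial UMIs entered. A barcode with 90% or more of its UMIs on human genes was taken as human, and one with 10% or less as cynomolgus. Of 16403 barcodes, 16116 passed these limits, 8173 were human, 6467 were cynomolgus and 1476 (9.16%) were neither. The 14640 cells are part of 28496 barcodes in the series, which has 1 other library, from day 0. The 2 libraries share 50 barcode sequences.

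The human line was H9, which is an established line of embryonic stem cells. The cynomolgus line was 56A1, made of induced pluripotent stem cells. Both carried a knockout of UGP2, so the knockout is common to the groups compared, and no wild-type cells were analysed here. Per the labels, both lines were seeded in UPPS medium and then grown for 7 days in a neural progenitor medium with SB431542 at 10 µM and LDN193189 at 100 nM, which block the receptors of activin and NODAL and of BMP, and equal amounts of both were pooled for the library. Each species is 1 cell line in 1 library. Species, line, culture, cell type of origin and annotation therefore cannot be told apart, no test was possible, and intervals cover counting error only.

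Blocking activin, NODAL and BMP signals turns pluripotent cells into neuroepithelium, the sheet of dividing progenitors that gives rise to the brain. Its first cells take an anterior identity, and gradients of FGF and WNT then divide the plate into eye field, forebrain, midbrain and hindbrain, each marked by its own transcription factors. UGP2 makes UDP-glucose, from which cells build glycogen and many glycans.

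Levels are counts per 1000000 (CPM) of a species' non-mitochondrial UMIs on its own genome, 43723892 in human and 34639499 in cynomolgus cells. Differences are log2((cynomolgus CPM + 1)/(human CPM + 1)), so positive values are higher in cynomolgus cells, and the added 1 understates the difference of low genes. Median depth was close, 4965 own-genome UMIs and 2557 genes per human cell and 4713 UMIs and 2569 genes per cynomolgus cell. Cynomolgus cells carried a median of 6.01% of UMIs on human genes, against 1.22% on cynomolgus genes in human cells. Only the 15146 symbols given once in both annotations were compared. They held 75.7% of human and 82.0% of cynomolgus UMIs, and another 18.0% of cynomolgus UMIs fell on genes with no symbol. Because reads of one species can be assigned to the other genome, each difference was also computed with both genomes' copies of a symbol summed, and this value is given where it changes the picture.

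UGP2 itself was counted at similar levels in both species. UGP2 (ENSG00000169764) was at 87.0 CPM in human cells (exact Poisson 95% interval 84.3 to 89.8) and UGP2 (ENSMFAG00000035944) at 76.8 CPM in cynomolgus cells (73.9 to 79.8). The difference was -0.18. With each cell thinned to 2500 UMIs, 19.5% of human and 16.9% of cynomolgus cells had a UGP2 UMI. The labels do not say which part of the gene was deleted, so a count of its 3' end does not check the knockout.

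Both species carried neural progenitor genes at similar summed levels, and human cells also carried several genes of pluripotent cells. The summed level of progenitor markers was 3925 CPM over 12 markers in human cells and 4025 CPM over the 10 of these with a cynomolgus symbol. DLK1, a ligand that modulates Notch, was the largest part of both sums, at 2407 CPM in human and 1903 CPM in cynomolgus cells. VIM, an intermediate filament protein of neuroepithelium outside this marker set, was at 826.5 and 883.1 CPM. In human cells 11 of 12 markers reached 5 CPM, and in cynomolgus cells 9 of 10. Those under 5 CPM were SOX1 in human cells (2.77 CPM, no cynomolgus symbol) and ZIC1 in cynomolgus cells (5.72 and 1.99 CPM).

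Pluripotency markers were a clear point of contrast. L1TD1, which binds RNA and marks pluripotent cells, was at 267.9 CPM in human and 0.231 CPM in cynomolgus cells, and DPPA4, a chromatin-associated protein of early embryos, at 112.2 and 0.260 CPM. Both genes were countable in cynomolgus cells before induction, at 185.6 and 172.4 CPM on day 0. They were already higher in human cells then, at 1225 and 523.5 CPM. The epithelial adhesion molecule EPCAM was at 25.5 and 2.17 CPM and the de novo DNA methyltransferase DNMT3B at 113.8 and 38.9 CPM. The core factors were low in human cells too, with POU5F1 at 2.86 CPM, NANOG at 0.709 CPM and TDGF1 at 0 UMIs (up to 0.0686 CPM allowed by a count of 0), and have no cynomolgus symbol to compare. Of 15 measured pluripotency genes (5 CPM or more in either species), 7 stood at least 2-fold higher in human and 2 in cynomolgus cells. Over all 10157 measured symbols these shares were 14.5% and 16.9%, 31.4% in all. The list's median difference was -0.98, and 0.14 over all measured symbols. With copies summed the median was -0.56 and 5 remained 2-fold higher in human cells, since LIN28A, a repressor of let-7 maturation, moved from -1.55 to -0.66 and SOX2 from -1.34 to -0.56. POLR3G, an RNA polymerase III subunit of this list, went the other way, at 9.03 CPM in human and 70.1 CPM in cynomolgus cells. On day 0 the list's median was already -0.84 over 19 measured genes, with 8 at least 2-fold higher in human and 0 in cynomolgus cells.

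Most markers of other tissues were low in both species, with exceptions in each. In the marker sets, all neural crest, mesoderm, endoderm, and blood and vessel markers were under 5 CPM, with summed levels of 1.40 to 8.19 CPM in human and 0.318 to 4.21 CPM in cynomolgus cells. The defining genes FOXD3, TFAP2B and SOX17 had 0 UMIs in both species. The surface ectoderm markers summed to 281.9 CPM over 7 genes in human cells and 20.9 CPM over 5 in cynomolgus cells. KRT8 (153.4 CPM) and KRT18 (74.6 CPM), simple epithelial keratins, made up most of the human sum and have no cynomolgus symbol. KRT19, which has one, was at 49.4 CPM in human and 17.4 CPM in cynomolgus cells. A wider list of non-neural genes held 7 measured members, 3 of them at least 2-fold higher in each species. TAGLN and ACTA2, an actin-binding protein and an actin of smooth muscle and contractile cells, were at 335.5 and 173.1 CPM in cynomolgus cells, against 12.2 and 12.1 CPM in human cells, and on day 0 at 627.8 and 13.5 CPM against 28.2 and 1.01 CPM. TTR, a thyroid hormone carrier of liver and choroid plexus, was at 0.137 CPM in human and 23.7 CPM in cynomolgus cells. KRT19 and EPCAM were higher in human cells, and the collagen COL1A1 was similar at 11.5 and 8.75 CPM. The part of other cell types in the results was not tested.

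General neural progenitor genes split in both directions. Of 22 measured members, 8 stood at least 2-fold higher in human and 6 in cynomolgus cells, with a median of 0.21. FABP7, a fatty acid binding protein of radial glia, was at 316.5 CPM in human (311.2 to 321.8) and 13.5 CPM in cynomolgus cells (12.3 to 14.8). The Notch effector HES5 was at 26.9 and 0.837 CPM and LIX1, a gene of early neural tissue, at 108.8 and 48.5 CPM. On the other side, the progenitor intermediate filament NES was at 143.4 CPM in human and 495.8 CPM in cynomolgus cells, and CDH2, the N-cadherin of neuroepithelium, at 359.5 and 1154 CPM. NR2E1, a nuclear receptor that keeps neural stem cells dividing, was at 0.274 and 14.0 CPM, and GPM6A, a neural membrane glycoprotein, at 12.4 and 102.9 CPM. With copies summed HES5 was at 26.9 and 2.66 CPM, and its difference moved from -3.92 to -2.93. FABP7 and HES5 were thus higher in 1 species while NES and CDH2, equally usual markers, were higher in the other.

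Several progenitor transcription factors depended on how UMIs of the human copy in cynomolgus cells were treated. SOX2, which maintains progenitors, was at 439.1 CPM in human and 173.4 CPM in cynomolgus cells by own copies, while its human copy was at 125.5 CPM in cynomolgus cells. The difference was -1.34 by own copies and -0.56 summed. ZIC2, a zinc finger factor of the dorsal neural plate, moved from -3.28 to -1.01. PAX6, a master factor of eye and forebrain, was at 49.6 CPM in human and 105.0 CPM in cynomolgus cells, and its human copy was at 84.7 CPM in cynomolgus cells, 171% of its level in human cells. Its difference was 1.07 by own copies and 1.88 summed, so PAX6 was higher in cynomolgus cells either way.

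Genes of the anterior neural plate went both ways. RAX, SIX6, SIX3, FEZF1, SFRP1 and HESX1 were higher in human cells, and OTX2, OTX1, FEZF2 and EMX2 in cynomolgus cells. RAX, which specifies the eye field, was at 85.1 CPM in human (82.4 to 87.9) and 6.58 CPM in cynomolgus cells (5.76 to 7.49), a difference of -3.51. SIX6, a factor of retinal progenitors, was at 26.4 and 0.722 CPM. SIX3, which holds off WNT signals in the rostral forebrain, was at 141.9 and 45.6 CPM, and FEZF1, a zinc finger repressor of the rostral forebrain, at 201.0 and 27.3 CPM. The WNT inhibitor SFRP1 was at 881.9 and 337.1 CPM and HESX1, a homeobox repressor of the anterior plate, at 20.6 and 5.80 CPM. On day 0 FEZF1, SIX6, RAX and SIX3 were also higher in human cells, with differences of -3.14, -2.59, -1.94 and -1.92. SFRP1 and HESX1 were closer then (-0.31 and -0.20). On day 7 these 6 genes kept a difference of -1.25 or lower with copies summed. SP8, a zinc finger factor of the anterior neural ridge, did not: at 32.5 and 0.260 CPM by own copies, it moved from -4.73 to -0.64.

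OTX2, required for forebrain and midbrain, was at 20.6 CPM in human and 95.2 CPM in cynomolgus cells, a difference of 2.16. Its relative OTX1 was at 3.27 and 15.5 CPM. FEZF2, a relative of FEZF1 that later specifies deep cortical neurons, was at 0.229 and 29.6 CPM, the reverse of FEZF1. EMX2, a patterning factor of the dorsal telencephalon, was at 1.58 and 12.1 CPM by own copies and at 55.3 CPM in cynomolgus cells summed. OTX2 had a difference of 0.10 on day 0, when OTX1, FEZF2 and EMX2 were under 5 CPM in both species. LHX2, a LIM homeobox factor of cortex and eye, was similar on day 7, at 28.8 and 40.5 CPM. In all, 7 of 13 measured genes of the anterior list stood at least 2-fold higher in human and 5 in cynomolgus cells, leaving 1 between. The median was -1.38 by own copies and -0.64 summed over the same genes. It was -0.07 when the minimum of 5 CPM was applied to the summed levels, which lets DMRTA2 in. The list as a whole therefore had no firm direction, with members far to both sides of 0.

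Factors of caudal forebrain and midbrain also went both ways, with their own ordering. BARHL1, a homeobox factor of diencephalon and hindbrain, had 0 UMIs in human and 57.9 CPM in cynomolgus cells (55.3 to 60.4), at least 843-fold higher when 3 counts over all human cells are taken as the floor. The dorsal midline ligand WNT8B was at 0.297 and 43.1 CPM, and MEIS1, a homeobox cofactor, at 6.20 and 50.3 CPM. NR2F1, a nuclear receptor of the caudal cortex and diencephalon, was at 19.1 and 91.1 CPM and its relative NR2F2 at 67.7 and 122.7 CPM, a difference of 0.85 by own copies and 1.63 summed. LMX1A, a factor of roof plate and midbrain floor, was at 6.18 and 21.6 CPM. In human cells the higher genes were the paired box factors PAX2 (12.7 and 2.80 CPM) and PAX8 (15.3 and 1.85 CPM) of the midbrain-hindbrain border, IRX2 (30.1 and 5.72 CPM), and the zinc finger factor TSHZ2 (296.9 and 76.7 CPM). Of 16 measured members, 6 were at least 2-fold higher in cynomolgus and 4 in human cells, with a median of 0.29. None of the 15 HOX and spinal cord genes with a shared symbol reached 5 CPM in either species.

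**Figure D1:**
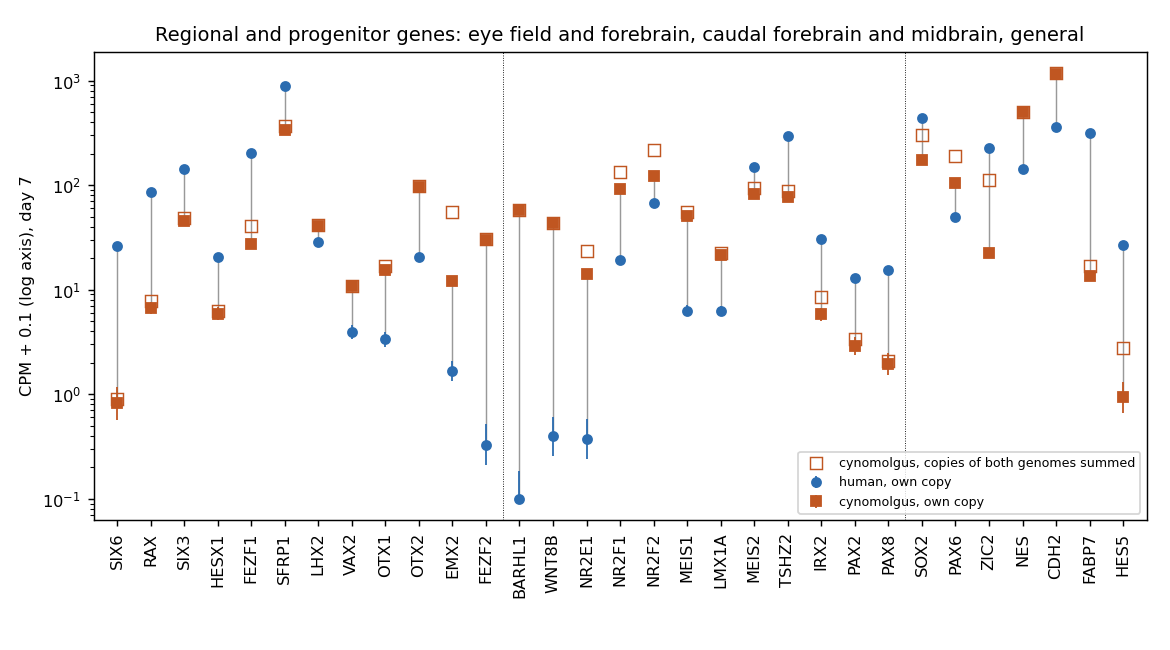
Levels of regional and progenitor genes at day 7 on a log axis (CPM + 0.1), with circles for human cells, filled squares for cynomolgus cells and open squares for cynomolgus cells with both genomes' copies summed; bars are exact Poisson 95% intervals, many smaller than the symbols. RAX, SIX6, SIX3 and FEZF1 lie higher in human cells and OTX2, FEZF2, BARHL1 and WNT8B in cynomolgus cells, while the open squares of PAX6, EMX2 and ZIC2 stand well above the filled ones.

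Few genes of newborn neurons were high in either species, and they did not favour one. Of 16 measured, 6 stood at least 2-fold higher in human and 5 in cynomolgus cells (median -0.29). The microtubule protein MAP2 was at 517.4 CPM in human and 180.4 CPM in cynomolgus cells, and DCX, a microtubule protein of migrating neurons, at 18.5 and 2.97 CPM. TUBB3, the neuronal tubulin, was the reverse at 1.44 and 79.0 CPM, and the factor EBF1 was at 7.69 and 47.0 CPM.

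Of the signalling pathways, FGF and its feedback genes had the median furthest to the human side, with members on both sides. The ligand FGF8 (ENSG00000107831), which patterns the anterior ridge and the midbrain-hindbrain border, was at 263.2 CPM in human cells (258.4 to 268.1). FGF8 (ENSMFAG00000003751) was at 9.96 CPM in cynomolgus cells (8.94 to 11.1), 26.4-fold lower. NPM3, a nucleoplasmin that lies within 2 genes of FGF8 in the gene order described below, went the other way, at 138.0 and 377.2 CPM, so the FGF8 difference cannot be told apart from one between the gene annotations. On day 0, with FGF8 at 4.27 and 2.995 CPM, NPM3 was at 158.0 and 594.7 CPM. FGF9 and FGF2 were at 27.1 and 73.9 CPM in human cells, against 9.84 and 33.7 CPM in cynomolgus cells. Genes that ERK signalling turns on to limit itself followed, with the phosphatase DUSP6 at 49.8 and 11.2 CPM, the signalling antagonist IL17RD at 90.7 and 23.7 CPM and SPRY2 at 32.5 and 9.04 CPM. ETV1, an ETS factor induced by FGF, was at 79.96 and 30.2 CPM. The receptors did not share this direction: FGFR1 was at 231.8 and 237.0 CPM, and FGFR2 was at 35.8 CPM in human and 92.4 CPM in cynomolgus cells. Of 19 measured genes, 9 stood at least 2-fold higher in human and 4 in cynomolgus cells, with a median of -0.75. With copies summed these counts were 7 and 5, and the median was -0.55. Over all measured symbols the own-copy shares were 14.5% and 16.9%. At day 0 the median over 22 measured genes was -0.27, with 3 higher in human and 5 in cynomolgus cells, and DUSP6 was at 157.3 CPM in human and 317.8 CPM in cynomolgus cells. The immediate early factor EGR1 reversed between measures, at -1.21 by own copies and 1.13 summed, because its human copy was at 23.5 CPM in cynomolgus cells. DUSP4, another phosphatase of the list, moved from -2.07 to -0.16.

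WLS, RSPO2 and the ligands WNT7B and WNT8B of the WNT pathway were higher in cynomolgus cells, while the receptors LGR4 and FZD3 were higher in human cells. WLS (ENSG00000116729), which carries WNT proteins to the cell surface, was at 32.4 CPM in human cells (30.8 to 34.2). WLS (ENSMFAG00000030065) was at 577.9 CPM in cynomolgus cells (569.9 to 586.0), 17.8-fold higher. The amplifier RSPO2 was at 3.20 and 67.0 CPM, the ligand WNT7B at 1.56 and 17.5 CPM, the nuclear effector LEF1 at 15.4 and 68.4 CPM, and the feedback gene AXIN2 at 2.54 and 7.85 CPM. Of the other measured ligands, WNT5A was higher in human cells by own copies (6.08 and 1.41 CPM, a difference of -1.55, or -0.67 summed) and WNT2B was similar at 13.1 and 17.1 CPM. LGR5, an RSPO receptor, was at 8.60 and 32.1 CPM, but LGR4, its relative, was the opposite at 494.6 and 85.9 CPM. The receptor FZD3 was at 427.2 and 161.8 CPM. Of 28 measured genes, 10 were at least 2-fold higher in cynomolgus and 6 in human cells, with a median of 0.21 that was near that of all symbols.

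Of genes in the pathways blocked during induction, 3 of 25 measured were at least 2-fold higher in cynomolgus and 5 in human cells (median -0.14). The BMP targets ID2 and ID3, inhibitors of proneural factors, were at 82.0 and 107.5 CPM in human cells, against 22.0 and 37.0 CPM in cynomolgus cells. Their relatives ID1 and ID4 had the other direction, at 21.6 and 55.1 CPM in human cells, against 48.1 and 284.1 CPM in cynomolgus cells. TGFB2, a TGF-beta ligand, was at 4.32 and 66.0 CPM. The 4 ID genes therefore had no common direction.

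Notch genes were mostly similar. Of 15 measured, 2 were at least 2-fold higher in each species and 11 lay in between (median -0.15). The ligand DLL1 was at 32.9 CPM in human and 73.4 CPM in cynomolgus cells and the receptor modifier LFNG at 24.8 and 143.5 CPM, while MFNG, of the same enzyme family, was at 14.3 and 0.520 CPM. NOTCH1 and NOTCH2 were at 35.0 and 81.6 CPM in human cells, against 31.5 and 88.5 CPM in cynomolgus cells. The target HES1 was at 91.3 and 113.9 CPM, in contrast to HES5. Hedgehog genes were also close, with 1 of 10 measured genes at least 2-fold apart.

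Retinoid genes and nuclear receptors held a few large differences around small medians of 0.07 and 0.26. The receptor RARB, itself a retinoic acid target, was at 23.1 CPM in human and 85.9 CPM in cynomolgus cells. CRABP1, a retinoic acid binding protein, was at 1280 and 453.1 CPM, and its relative CRABP2 at 402.8 and 484.2 CPM. LRAT, which esterifies retinol, was at 23.5 CPM in human cells and had 0 UMIs in cynomolgus cells, at least 270-fold lower against the same floor, and was also apart on day 0 (-6.77). The thyroid hormone receptor THRB was at 0.869 and 78.9 CPM. NR6A1, an orphan receptor of early embryos, was at 780.8 and 256.0 CPM.

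Cell surface molecules were spread widely in both directions. ERBB4 (ENSG00000178568), a receptor for neuregulins, was at 17.7 CPM in human cells (16.4 to 18.9). ERBB4 (ENSMFAG00000042352) was at 650.6 CPM in cynomolgus cells (642.2 to 659.2), 36.9-fold higher, against 17.1 and 18.9 CPM on day 0. The contactin CNTN6 was at 10.6 and 223.5 CPM and the adhesion molecule CADM2 at 67.1 and 569.5 CPM. LRRTM4, a postsynaptic adhesion protein, was at 928.3 CPM in human and 1.88 CPM in cynomolgus cells (230.0 and 19.6 CPM on day 0). IL1RAPL1, a synapse organiser, was at 603.4 and 96.1 CPM. Of 40 measured synaptic adhesion genes, 15 stood at least 2-fold higher in human and 12 in cynomolgus cells, leaving 13 in between, and the median was -0.60.

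Guidance molecules were split evenly, with 12 of 38 measured genes at least 2-fold higher in each species. The receptor EPHA7 was at 53.4 CPM in human and 766.3 CPM in cynomolgus cells, whereas EPHA4 was at 616.8 and 130.9 CPM and the ligand EFNA5 at 2415 and 678.6 CPM. ROBO2, a receptor for SLIT proteins, was at 83.3 and 831.8 CPM and its ligand SLIT2 at 18.5 and 226.0 CPM. The related receptor ROBO1 was at 522.2 and 275.1 CPM. DCC, the netrin receptor, and SEMA6A, a semaphorin, were higher in human cells at 125.0 and 389.3 CPM, against 17.2 and 85.7 CPM. Members of 1 family, such as the Eph receptors and the Robo receptors, thus lay on opposite sides.

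Cadherins were the adhesion family with a shift to cynomolgus cells. Of 23 measured, 13 were at least 2-fold higher in cynomolgus and 4 in human cells, with a median of 1.28, against 0.24 on day 0. Besides CDH2, PCDH7 was at 23.8 CPM in human and 489.2 CPM in cynomolgus cells, CDH8 at 46.8 and 282.0 CPM, and CDH6 at 10.1 and 59.7 CPM. CDH11 was the main exception at 202.9 and 46.4 CPM. CDH8 and CDH11 lie within 2 genes of each other and went opposite ways. On day 0 CDH8 was at 23.1 CPM in human and 4.49 CPM in cynomolgus cells, and CDH11 lay within 1.5-fold. The part of the gene annotations in their differences was not tested. The median was 0.32 when genes of any level entered.

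Matrix genes and ion channels had no common direction (medians 0.10 and -0.11). The proteoglycan GPC3 was at 946.8 CPM in human and 677.9 CPM in cynomolgus cells and GPC6 at 529.2 and 1197 CPM. COL11A1, a fibrillar collagen, was at 77.1 and 364.8 CPM, and COL1A2 was at 71.7 and 1.07 CPM. HPSE2, an inhibitor of heparanase, was at 241.9 and 8.55 CPM and on day 0 at 3.72 and 3.56 CPM. Of channels, KCNIP4, a potassium channel partner, was at 19.7 and 180.5 CPM, and the potassium channel KCNT2 at 454.3 and 161.2 CPM.

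Proliferation genes were higher in cynomolgus cells, most of all those of G2 and mitosis. The proliferation antigen MKI67 was at 108.0 CPM in human and 253.5 CPM in cynomolgus cells, the topoisomerase TOP2A at 254.6 and 656.5 CPM, and CDC20, an activator of the anaphase complex, at 89.6 and 287.5 CPM. Of 30 genes of G2 and M phase, 16 were at least 2-fold higher in cynomolgus and 1 (CENPA, a centromeric histone, at 54.6 and 5.63 CPM) in human cells. The median was 1.05, and 0.60 on day 0. Of 30 S phase genes, 10 were at least 2-fold higher in cynomolgus and 0 in human cells, with a median of 0.58. PCNA, the replication clamp, was at 121.3 and 244.6 CPM. Subunits of machines that all cells use had medians nearly as high, 0.53 over 28 proteasome genes and 0.52 over 16 chaperonin and RNA polymerase II genes. The S phase median was therefore close to these housekeeping lists, and the median of G2 and M phase was above them. CDKN1A, the p53-induced inhibitor of cyclin kinases, was similar at 27.4 and 27.5 CPM, and the G1 kinase CDK6 was at 23.5 and 72.8 CPM.

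The same cells differed in the spread of G2 and M phase UMIs. With each cell thinned to 2500 own-genome UMIs (7824 human and 6011 cynomolgus cells, leaving out 349 and 456 shallower ones), the list had a median of 4 UMIs per human and 10 per cynomolgus cell. Cells with at least 20 such UMIs were 10.8% of human and 31.2% of cynomolgus cells. Without NUSAP1, a spindle protein whose difference of 5.29 was nearly as large on day 0 (5.01), these shares were 10.7% and 29.6%. Proteasome genes, for comparison, had medians of 9 and 13 UMIs.

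Targets of hypoxia-inducible factor were higher in cynomolgus cells with few exceptions. Of 21 measured, 12 were at least 2-fold higher in cynomolgus and 0 in human cells, with a median of 1.18. On day 0 the median was 0.12. The glucose transporters SLC2A1 and SLC2A3 were at 113.4 and 104.8 CPM in human cells, against 527.5 and 679.3 CPM in cynomolgus cells. The mitophagy receptor BNIP3 was at 160.3 and 664.6 CPM, the peptide hormone ADM at 5.51 and 44.5 CPM, and FAM162A, a mitochondrial protein induced by low oxygen, at 205.6 and 506.8 CPM. Carbonic anhydrase CA9 was at 0.892 and 29.0 CPM, and EGLN1, the oxygen-sensing prolyl hydroxylase, at 2.54 and 74.8 CPM. CA9, EGLN1 and the glucose transporters were also over 2-fold higher in cynomolgus cells on day 0, with differences of 3.81, 3.18, 2.04 and 1.87, while ADM was lower there (-3.37). PDK1, the kinase that inhibits pyruvate dehydrogenase, was the lone member below 0 (-0.23). Per cell at equal depth, hypoxia genes had a median of 3 UMIs in human and 7 in cynomolgus cells, and the 90th percentile of cells was at 7 and 23 UMIs. At least 20 such UMIs were found in 0 of 7824 human cells, which allows a share of up to 0.0383%, and in 16.3% of cynomolgus cells.

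The metabolic list around UGP2 differed little between the species, while glycolysis, oxidative phosphorylation and amino acid response genes leaned to cynomolgus cells. Of 32 measured genes of glycogen and UDP-sugars, 4 were at least 2-fold higher in each species and the other 24 were closer, the median being -0.11. UGDH, which turns UDP-glucose into UDP-glucuronate, was at 172.2 CPM in human and 152.3 CPM in cynomolgus cells. The branching enzyme GBE1 was at 72.5 and 130.1 CPM, the glycogen primer GYG1 at 17.5 and 38.5 CPM, and the liver-type phosphorylase PYGL at 26.7 and 9.38 CPM. Glycolysis had a median of 0.46 over 18 genes, of which 4 were at least 2-fold higher in cynomolgus cells, among them both glucose transporters above and the hexokinase HK2 (26.4 and 55.5 CPM). Its enzymes LDHB and PKM were at 715.2 and 328.5 CPM in human cells, against 998.3 and 461.7 CPM in cynomolgus cells. Nuclear genes of oxidative phosphorylation had a median of 0.56 over 25, near the housekeeping lists. Sterol synthesis genes had a median of -0.09 over 20. Genes of the amino acid response also had a median near the housekeeping lists, 0.50 over 23, with 6 at least 2-fold higher in cynomolgus and 1 in human cells. Their day 0 median was -0.64. The asparagine synthetase ASNS of this list was at 15.3 and 69.6 CPM.

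**Figure D2:**
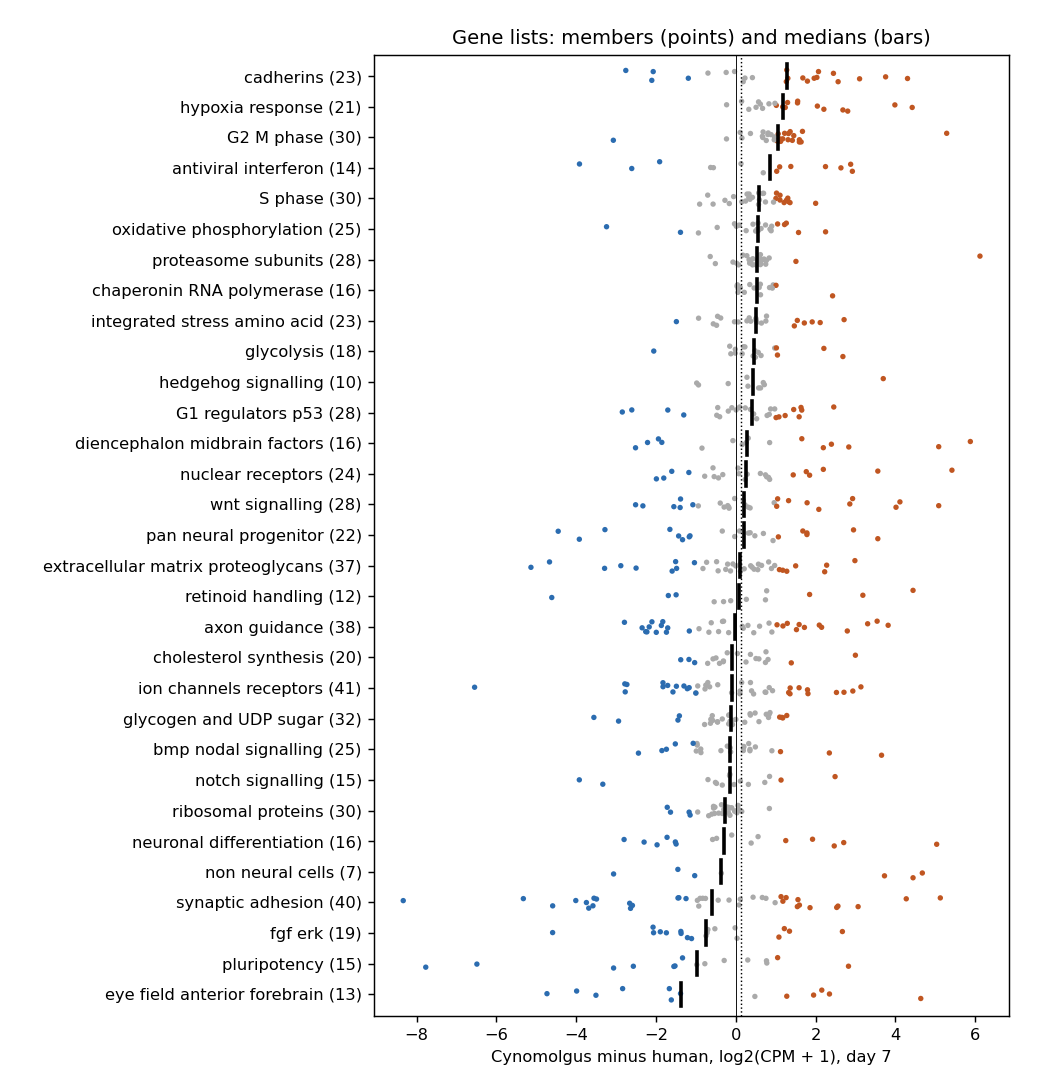
Differences of the measured members of each gene list (points, number measured in brackets), with the list median as a black bar; the x axis is the cynomolgus minus human difference on the log2(CPM + 1) scale, orange and blue points are at least 2-fold higher in cynomolgus and human cells, and the dotted line is the median over all measured symbols (0.14). Cadherins (1.28), hypoxia genes (1.18) and G2 and M phase genes (1.05) have the highest medians and anterior forebrain (-1.38), pluripotency (-0.98) and FGF genes (-0.75) the lowest, with members on both sides of 0 in each of these lists.

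Shares of cells with a UMI, at equal depth, showed whether a level was carried by many cells. FGF8 was found in 41.2% of human and 2.61% of cynomolgus cells, and RAX in 19.0% and 1.76%. Their human copies gave UMIs in 0.715% and 0.316% of cynomolgus cells, part of which can be cynomolgus reads assigned to the human genome. L1TD1 was found in 45.4% of human cells and in 0.0333% of cynomolgus cells, where its human copy gave 0.749%. DPPA4 was found in 24.0% of human and 0.0998% of cynomolgus cells. FABP7 was found in 48.5% of human and 2.73% of cynomolgus cells. These genes were thus carried by a sizeable part of the human cells. Without thinning, FGF8 was found in 60.6% of human and 4.72% of cynomolgus cells and L1TD1 in 66.4% and 0.124%.

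In the other direction, WLS was found in 6.72% of human and 71.6% of cynomolgus cells, EPHA7 in 10.8% and 70.7%, ERBB4 in 3.91% and 60.5%, and PCDH7 in 4.61% and 57.8%. BARHL1 was found in 0 of 7824 human cells (up to 0.0383% allowed) and 12.5% of cynomolgus cells, and OTX2 in 4.73% and 19.9%. Without thinning, the shares were 13.1% and 86.1% for WLS and 6.84% and 71.1% for ERBB4. PAX6 was found in 10.5% of human and 22.8% of cynomolgus cells. Its human copy was found in 18.1% of cynomolgus cells, counted separately, so these shares can overlap. Human-copy SOX2 was found in 25.4% and human-copy NR2F2 in 19.3% of cynomolgus cells. For these 3 genes the own-genome share leaves out a large part of the UMIs of the symbol.

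**Figure D3:**
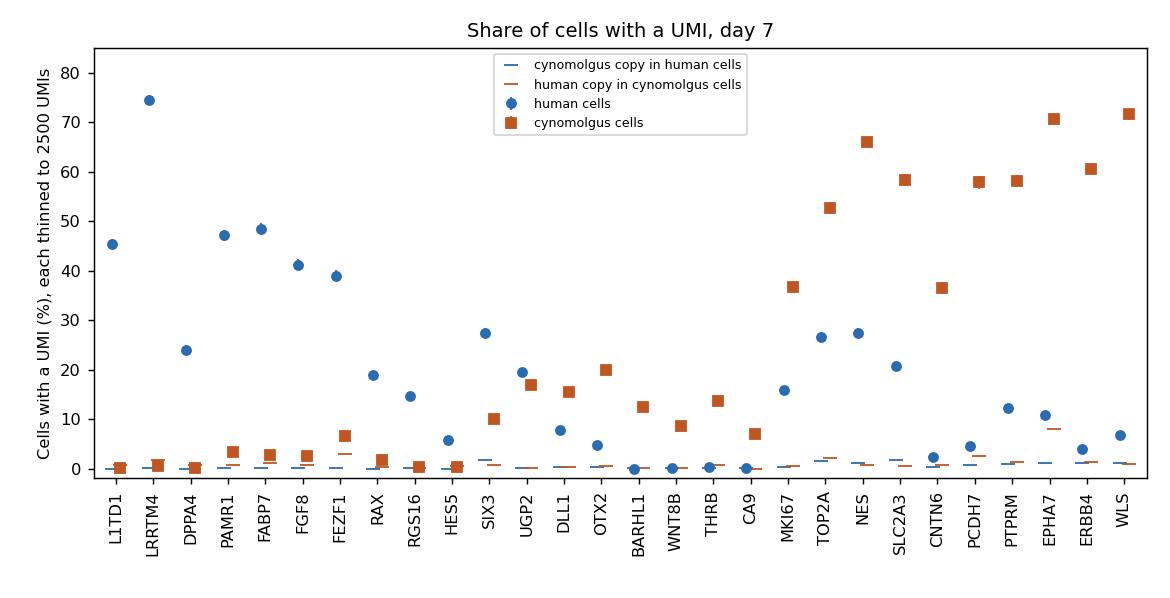
Percent of cells with at least 1 UMI of a gene's own-genome copy at day 7, each cell thinned to 2500 UMIs, with circles for human cells, squares for cynomolgus cells, exact binomial 95% intervals as bars and dashes for the other genome's copy in the same cells. L1TD1, FGF8 and FABP7 lie above 40% in human and below 3% in cynomolgus cells, and ERBB4, EPHA7 and WLS above 60% in cynomolgus and below 11% in human cells.

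Across the whole table, 1714 of 10157 measured symbols (16.9%) were at least 2-fold higher in cynomolgus and 1477 (14.5%) in human cells, and 48.6% lay within 1.5-fold. The interquartile range of the differences lay between -0.48 and 0.70. Pearson's r of log2 CPM across these genes was 0.705 and Spearman's rho 0.769, a description over genes that share 2 pools of UMIs. Summing both copies gave 1722 (17.0%) and 1317 (13.0%), 29.9% in all, and 161 of the human-higher genes fell under 2-fold. Scaling CPM to the total over shared symbols moved the median difference over all symbols from 0.14 to 0.02, and differences can be read relative to that shift.

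**Figure D4:**
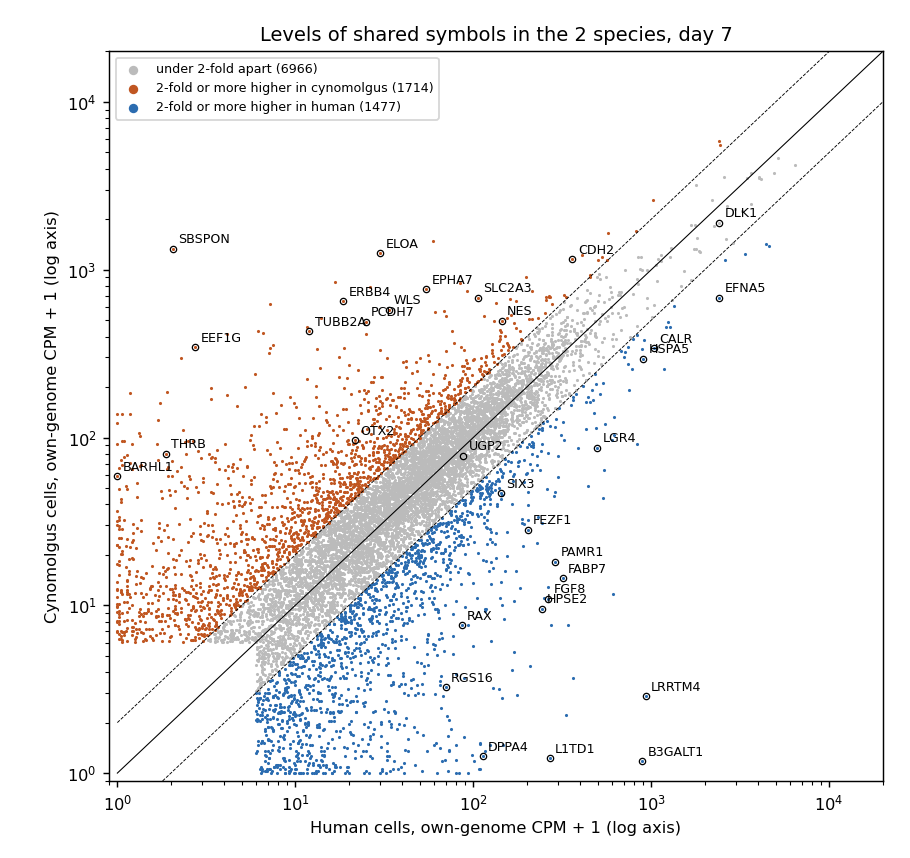
Own-genome CPM + 1 of the 10157 measured shared symbols in human (x) and cynomolgus cells (y), both axes log; the solid line is equality, dashed lines mark 2-fold in CPM + 1, and selected genes are labelled. The cloud follows the line, with 1714 symbols at least 2-fold higher in cynomolgus (orange) and 1477 in human cells (blue).

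Most genes 2-fold apart on day 7 and measured on day 0 were so before induction too, in the cells that could be called then. Of the 1513 cynomolgus-higher genes that were measured on day 0 (where 16.0% of 10103 symbols were that much higher in cynomolgus and 14.7% in human cells), 916 were at least 2-fold higher in cynomolgus cells then too, and of 1282 human-higher genes, 837 were. At 5 CPM or more in both species, 12.6% of 8475 symbols were at least 2-fold higher in cynomolgus and 8.96% in human cells. Among them ERH, a small nuclear protein, was at 612.2 CPM in human and 10.6 CPM in cynomolgus cells and at 915.0 and 8.24 CPM on day 0. NME2, a nucleoside diphosphate kinase, was at 6.20 and 625.9 CPM, and on day 0 at 10.5 and 1237 CPM. The proteasome subunit PSMA2 was at 5.19 and 429.7 CPM, with a difference of 6.12 on day 7 and 6.48 on day 0. B3GALT1, a galactosyltransferase, was at 886.9 and 0.173 CPM, and SBSPON, a matrix protein, at 1.05 and 1332 CPM, also with differences of the same order on day 0 (-8.95 and 8.62). EEF1G, a translation elongation factor, was at 1.74 and 344.2 CPM. ERH, PSMA2 and EEF1G are genes that dividing cells in general use. NME2, EEF1G, DDT (5.60 and 419.9 CPM) and TUBB2A have near-identical copies or read-through partners, and their counts are uncertain.

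Some of these genes lie close to a gene whose symbol is missing from the cynomolgus annotation. In a RefSeq table of the cynomolgus assembly T2T-MFA8v1.1, used only for gene order, ELOA, an elongation factor subunit, lies within 2 genes of RPL11. ELOA was at 28.9 CPM in human and 1259 CPM in cynomolgus cells, and RPL11 at 2564 CPM in human cells with no cynomolgus symbol. Also within 2 genes, PSMA2 lies near GLI3 (298.5 CPM in human cells), AKAP1 (13.0 and 512.7 CPM) near MSI2 (298.5 CPM), AMDHD1 (1.28 and 296.5 CPM) near SNRPF (226.6 CPM) and LHX6 (0.183 and 136.7 CPM) near NDUFA8 (75.5 CPM), none of which has a cynomolgus symbol. ATP6V1F, a proton pump subunit, was at 145.7 and 0.462 CPM, while ATP6V1FNB, named as its neighbour, was at 0.183 and 182.4 CPM. A neighbour within 2 genes was counted as mirroring a gene when it went the other way by at least 50% of that gene's difference in CPM. A neighbour with no cynomolgus symbol was taken as 0 CPM there, although its level was not measured. Most of the genes looked up had no mirroring neighbour. Among the largest differences at 5 CPM or more in both species, 4 of 11 cynomolgus-higher and 1 of 15 human-higher genes had one (the last being FGF8), and under 5 CPM in 1 species 2 of 6 and 1 of 8. All the mirroring neighbours of these cynomolgus-higher genes lacked a cynomolgus symbol. The share over all measured symbols was not computed, so no excess can be read from these counts. Differences that are equal on both days or mirrored by a neighbour cannot be told apart from differences between the 2 gene annotations. The part of the annotation was not tested.

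Genes that were counted alike in both species before induction give a narrower set. Outside ribosomal genes, 2664 symbols reached 50 CPM in at least 1 species on day 7 and, on day 0, had 10 CPM or more in both species and lay within 1.5-fold. Of these, 8.18% were at least 2-fold apart on day 7 by own copies and summed, 127 higher in cynomolgus and 91 in human cells. This set was drawn after the values were seen and uses the day 0 level as its rule. It therefore depends on the 2016 cynomolgus cells called on day 0, which lie close to the limit of the species call. RGS16, which shortens G protein signals, had the largest difference to the human side, at 69.0 CPM in human (66.5 to 71.5) and 2.25 CPM in cynomolgus cells (1.78 to 2.81). PAMR1, a secreted protease-like protein, was at 288.7 and 17.2 CPM, and WFDC2, a secreted protease inhibitor, at 133.3 and 26.2 CPM. The guidance genes SEMA6A and NRP2 (69.1 and 15.3 CPM) and the cadherin CDH11 were also among the 10 largest, as were GLCCI1 (489.4 and 112.9 CPM) and CALN1 (72.7 and 14.9 CPM). Of these named genes, CDH11 was mirrored by its neighbour CDH8, and CALN1 by GALNT17 (79.7 and 116.8 CPM). In each direction 2 of 9 such genes found in the RefSeq table had a mirroring neighbour. To the cynomolgus side these neighbours had no cynomolgus symbol, and the share over all symbols was again not computed.

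To the cynomolgus side, ERBB4 had a difference of 5.13. NUAK1, a kinase of the AMPK family, was at 16.6 CPM in human and 227.1 CPM in cynomolgus cells, and PTPRM, an adhesive receptor phosphatase, at 59.7 and 560.7 CPM. CACHD1 was at 26.6 and 229.7 CPM (201.5 and 197.9 CPM on day 0), the exchange factor VAV3 at 8.46 and 75.8 CPM, and the histone deacetylase HDAC9 at 26.5 and 213.0 CPM. TUBB2A, a tubulin, was at 11.0 and 428.5 CPM, but human cells carried 38.5 CPM of the cynomolgus copy, and the difference was 5.17 by own copies and 3.09 summed. ERBB4, SEMA6A and CDH11, described above with their families, are thus among the genes that were alike on day 0.

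**Figure D5:**
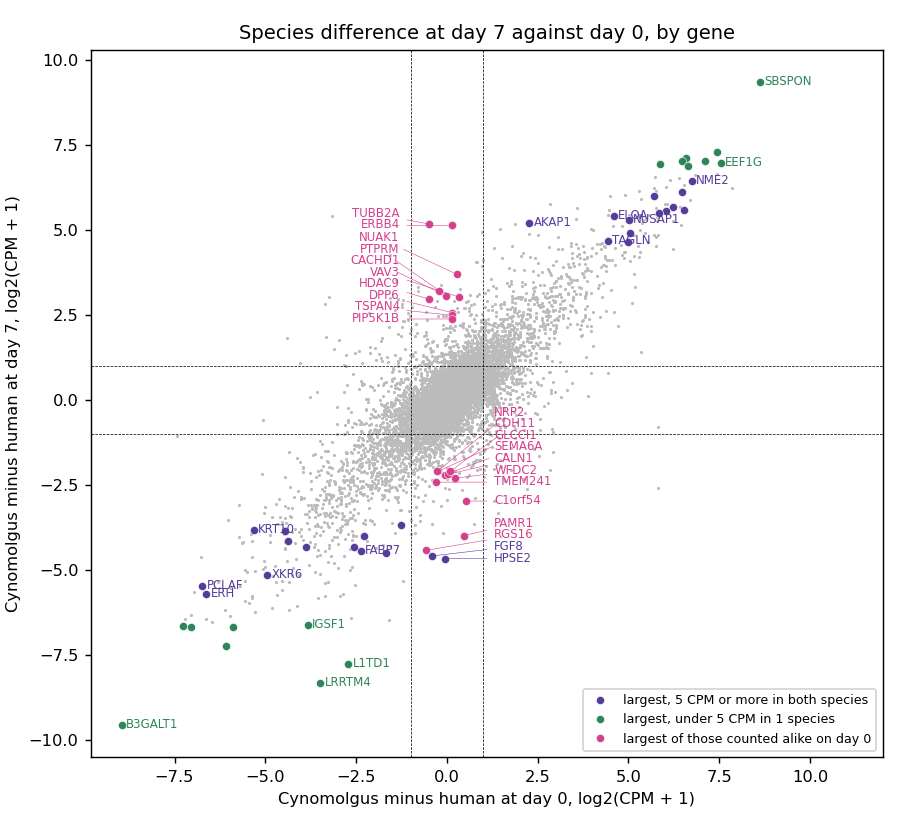
Species difference at day 7 (y) against day 0 (x) for symbols measured on both days, both on the log2(CPM + 1) scale, with named genes coloured by how they were chosen and dashed lines at 2-fold. Large differences such as those of ERH, NME2, SBSPON and B3GALT1 lie along the diagonal, while FGF8, HPSE2, ERBB4, TUBB2A and PAMR1 lie near 0 on the x axis.

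Ribosomal protein genes leaned to human cells, and mitochondrial genes had no common direction. Named ribosomal protein genes took 18.2% of human and 6.73% of cynomolgus UMIs, and 30 of 68 had a symbol in both annotations. Over these 30 the median was -0.28, with 4 at least 2-fold higher in human and 0 in cynomolgus cells, RPL15 (4563 and 1386 CPM) among them. RPLP1 was at 6389 and 4209 CPM. Of the 13 protein-coding mitochondrial genes, as a share of all own-genome UMIs, 3 stood at least 2-fold higher in human and 1 in cynomolgus cells, with a median of 0.05. MT-CO1, a subunit of cytochrome oxidase, was at 9176 CPM in human and 433.6 CPM in cynomolgus cells, while MT-CO2, another subunit, was at 4542 and 5323 CPM.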

How the data were processed

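Each deposited matrix holds UMI counts per gene and barcode over both genomes. Cell Ranger is given as 7.1.0 per the file headers and as 7.2.0, with GRCh38, per the submitters' processing notes; the kit was 10x Chromium 3' v3.1 per the labels' protocols. Gene prefixes name GRCh38 (20669 genes) and Macaca_fascicularis 6.0, Ensembl release 107 (22504 genes). How reads were mapped is not stated there.

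Each species' UMIs were pooled over its cells and divided by their own-genome non-mitochondrial total. The genes and lists were chosen with earlier results of these data known. Named genes are list members, markers, and symbols at 50 CPM or more in at least 1 species. Of symbols 2-fold apart by both measures, the 15 largest per direction at 5 CPM or more in both species were taken. The 8 largest under 5 CPM in 1 species were taken likewise and, added after values were seen, the 10 largest that were alike on day 0. Another 5 per direction were 2-fold apart by own copies but under 2-fold or reversed when summed. The text names part of these. Cell shares were given for the rule's genes and for others added after values were seen. A count of 0 was set against 3 counts, 0.0686 CPM in human and 0.0866 CPM in cynomolgus cells. Thinning drew 2500 own-genome UMIs per cell. Doublets within a species were not removed; mixed barcodes fell under neither. A single library allows no test. Of 66 named genes, 58 were found in the RefSeq table. No sequence or gene position is printed, and results for some genes are not reported here. The computation was tested on simulated data. Scripts ran in Python 3.11.15 with scipy 1.17.1, numpy 2.4.6, matplotlib 3.10.9 and pandas 2.3.3. The alternatives covered the species call, UMI, mitochondrial and depth limits, the CPM total, rescaling, equal weight per cell, summed copies, the pseudocount, the minimum level and the thinning depth.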

Additional observations from a re-analysis of the deposited data

Results flagged for a closer look

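For 11 list members given here the species difference was at least 2-fold in opposite directions on the 2 days. Each day is 1 library, cynomolgus cells may be missing on day 0 as described above, and the change of direction was not tested. Over all symbols measured on both days, 52 of 1513 genes cynomolgus-higher on day 7 and 31 of 1282 human-higher ones were likewise opposite on day 0. Higher in human cells on day 7 and in cynomolgus cells on day 0 were the synapse organiser IL1RAPL1 (-2.64 on day 7 and 2.21 on day 0), the FGF signalling antagonist IL17RD (-1.89 and 1.39) and the BMP target ID3 (-1.52 and 1.02). The reverse held for the Notch ligand DLL1 (1.13 and -1.34), the neuregulin NRG3 (1.18 and -1.94), the neuroligin NLGN1 (1.54 and -2.12), TMEM132B (1.86 and -3.34), the cadherin CDH8 (2.56 and -2.14), the polymerase subunit POLR3G (2.82 and -1.23), the membrane glycoprotein GPM6A (2.95 and -1.35) and the thyroid hormone receptor THRB (5.42 and -3.15). DLL1 on day 0 was at 5.31 CPM in human and 1.498 CPM in cynomolgus cells, and THRB at 16.2 and 0.936 CPM.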

How the results depend on the processing

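No paired analysis was possible because each day is 1 library and no result comes from a test. Calling species at 95% of UMIs left only 111 cynomolgus cells (8074 human) and moved most: the median over all symbols was 0.25, UGP2 -0.70, and the medians of BMP and NODAL genes 0.44, hedgehog 0.89, S phase 0.028, G2 and M phase 0.70 and ribosomal proteins -0.95. Those of oxidative phosphorylation (-0.11), proteasome (-0.13) and chaperonin and polymerase genes (-0.040) changed sign, as did those of synaptic adhesion (-0.60 to 0.22), general progenitor (0.21 to -0.29), neuronal (-0.29 to 0.32), G1 (0.41 to -0.064), glycogen (-0.11 to 0.096) and ion channel genes (-0.11 to 0.44). The median over all symbols was 0.16 with mitochondrial UMIs in the total, 0.019 with the total over shared symbols, 0.17 with copies summed, 0.17 at a minimum of 20 CPM, 0.023 with no minimum, and changed sign, at -0.0145, when cynomolgus CPM were divided by the median ratio of 1.11. UGP2 was -0.29 with the shared-symbol total and -0.33 after that rescaling. At 20 CPM, where fewer genes enter, 887 symbols were at least 2-fold higher in human cells. The cause of the other shifts was not tested. Medians of retinoid, axon guidance, matrix, synaptic adhesion and non-neural genes changed sign under 3, 5, 2, 2 and 5 of 14 alternatives. Those of hypoxia (1.03 to 1.57), G2 and M phase (0.70 to 1.16), cadherin (0.32 to 1.85) and FGF genes (-0.89 to -0.52) kept theirs. Pluripotency (-1.28 to -0.033, the last with no minimum level) and anterior forebrain genes (-1.86 to -0.073, the last with copies summed) also kept theirs but came close to 0, as did antiviral genes (0.021 to 1.24). Depth limits what can be said of genes under about 5 CPM.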

Other observations

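Chaperones of the endoplasmic reticulum, a list drawn up after HSPA5 and CALR were seen, were higher in human cells. HSPA5, the main chaperone of this compartment, was at 901.8 CPM in human and 294.1 CPM in cynomolgus cells, and CALR, a lectin chaperone, at 1036 and 339.8 CPM. Both were closer on day 0, with differences of -0.48 and -0.11. The disulfide isomerase PDIA3 was at 705.5 and 299.1 CPM and HYOU1, a stress-induced chaperone, at 80.8 and 26.8 CPM. Of 21 measured genes, human cells were at least 2-fold higher for 6, HSPA5 and CALR among them, and cynomolgus cells for 2. These shares were 28.6% and 9.52%, against 14.5% and 16.9% over all measured symbols. With copies summed 5 stood at least 2-fold higher in human cells. The list's median was -0.73 on day 7 and -0.27 on day 0. Because HSPA5 and CALR prompted the list, its counts and median give no separate support. HSPA5 was found in 82.7% of human and 46.5% of cynomolgus cells at equal depth. The 3 members higher in cynomolgus cells were TXNDC5, the oxidase ERO1A and SEL1L. TXNDC5 was at 0.892 and 185.0 CPM, a difference of 6.62 on day 7 and 6.83 on day 0. ERO1A was at 44.3 and 90.5 CPM and SEL1L at 46.0 and 66.9 CPM.

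Antiviral genes had a median of 0.86 over 14, which was 1.05 on day 0. ISG15, a ubiquitin-like protein induced by interferon, was at 18.1 CPM in human and 0.260 CPM in cynomolgus cells, and MX1, another such gene, at 0.732 and 12.1 CPM. The antigen presentation genes B2M and TAP1 were at 126.9 and 0.686 CPM in human cells, against 331.7 and 11.4 CPM in cynomolgus cells.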
